A study of Rattus with 6 samples.

Results

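The genes followed here belong to signalling by extracellular nucleotides and number 5, P2ry6, P2rx4, P2rx7, Entpd1 and Adora2b. They were picked by gene symbol, and all 5 were found among the 16690 genes of the deposited table. Nucleotides that leave a cell act on its own surface and on that of its neighbours. ATP opens the P2X ion channels, while ATP, ADP, UTP and UDP act on the P2Y receptors, which couple to G proteins. Ectonucleotidases at the cell surface cut these nucleotides down step by step to nucleosides, and the adenosine so formed acts on receptors of its own and is taken up by transporters. In bone marrow stroma the system is known for effects on migration, differentiation and mineral deposition, and in macrophages for effects on uptake of debris and on release of inflammatory cytokines.

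RNA was sequenced from cultured bone marrow mesenchymal stem cells (BMSC) of Sprague Dawley rats, stromal cells that grow attached to the dish. The CKD group held 3 libraries from rats modelling chronic kidney disease, and the control group 3 libraries from healthy rats. All 6 libraries carry the genotype label wild-type. How the disease was induced, the age and sex of the animals and whether animals were pooled are not given in the sources used here. The comparison asks which transcripts differ between CKD and control. The extract protocol speaks of RNA from exosomes where the titles and design text speak of cells. The design text calls the 3 libraries of a group biological replicates, yet no label ties a library to an animal. The library names of CKD replicates 1 and 3 share a start, as do those of control replicates 1 and 2, and what the shared start marks is not stated, so p-values measure a spread between libraries that may be technical in part.

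Values are FPKM, fragments scaled by gene length and library depth. Between 34404037 and 46892613 fragments per library fell on the listed genes, as recovered from the table. The groups follow titles and column codes. Replicate numbers follow the column codes, and CKD replicate 3 carries another number in its title. A separate disease model tag says control for CKD replicate 1 and CKD for control replicate 2, against their titles. The libraries also stood apart from each other in another way. Across tested genes, CKD replicates 2 and 3 correlated at r = 0.996 and control replicates 2 and 3 at 0.998. CKD replicate 1 correlated at 0.967 with control replicate 1, and at 0.935 and 0.944 with CKD replicates 2 and 3. For this reason the genes followed here are also compared within the first replicates and within replicates 2 and 3.

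The cell type was checked against marker genes. Thy1 (CD90) and Itgb1 (CD29), which the labels use to define the cultures, had at least 505 and 847 FPKM in every library. Of 10 stromal markers, the collagen genes Col1a1 and Col1a2 had the highest levels, at 2089 FPKM or more. Other stromal markers were low or varied. Lepr reached at most 0.246 FPKM. Vcam1 had 2.12, 8.78 and 6.94 FPKM in CKD and 1.80, 0.829 and 1.56 FPKM in control. Pdgfrb had 119, 134 and 149 FPKM in CKD and 58.8, 115 and 118 FPKM in control. Both were higher in every CKD library than in every control library, as were 18.3% of all genes tested. Thy1 was lower in every CKD library, as were 9.59%. Eng (CD105) had 10.8, 20.4 and 21.8 FPKM in CKD and 11.8, 83.4 and 88.8 FPKM in control, and Pdgfra had 16.7, 46.0 and 44.3 FPKM in CKD and 39.9, 67.9 and 69.6 FPKM in control. Of 9 stromal markers tested limma called 0, with 2 at an unadjusted p under 0.05, 1 higher and 1 lower, and limma-voom called 0. Markers of macrophages and other blood cells were also present. Summed over 20 such genes, the level came to 301, 3427 and 2324 FPKM in CKD replicates 1, 2 and 3, against 423, 22.7 and 14.5 FPKM in control replicates 1, 2 and 3. Each of the 20 had its highest levels in CKD replicates 2 and 3. Between the first replicates, 3 of the 20 were higher in CKD. Ptprc, the gene of CD45, had 0.783, 15.5 and 11.4 FPKM in CKD and 1.33, 0.0140 and 0.0204 FPKM in control, while the labels describe the cultures as negative for that protein. Of 16 macrophage genes tested, limma called 0 between CKD and control, with 9 at an unadjusted p under 0.05, all higher in CKD, and limma-voom called 0. Among all genes tested 22.1% had an unadjusted p under 0.05, 14.6% on the higher side and 7.51% on the lower side, and 2.07% were called. Markers of lymphocytes, neutrophils and red cells were absent from the table or reached at most 0.0719 FPKM in any library. Of 4 endothelial markers, Pecam1, Cdh5 and Kdr reached at most 0.172 FPKM, while Tek had 0.374, 0.0954 and 0.0864 FPKM in CKD and 0.644, 2.25 and 2.31 FPKM in control. Pf4, a chemokine listed for platelets, followed the macrophage genes at 13.1, 150.2 and 102 FPKM in CKD and 41.5, 2.15 and 0.847 FPKM in control.

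P2ry6 (NCBI Gene 117264) encodes the P2Y6 receptor, which responds to UDP and couples to Gq. It had 3.78, 5.86 and 5.22 FPKM in CKD replicates 1, 2 and 3, against 0.834, 0.176 and 0.305 FPKM in control replicates 1, 2 and 3. Every CKD library lay above every control library, and the lowest CKD value was that of the first replicate, while the highest control value was that of the first replicate too. These values rest on 436, 603 and 672 fragments in CKD and on 117, 22 and 35 fragments in control. Averaged over the group (± SD, n = 3 each), P2ry6 reached 4.95 ± 1.07 FPKM in CKD, against 0.438 ± 0.348 FPKM in control, a ratio of 11.3. On the log2(FPKM + 1) scale the difference was 2.06 ± 0.22 (SE). The fold change in the authors' deposited table, made from normalized counts, was 10.6.

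P2ry6 was singled out from this comparison in the first place, and the other genes were named with its results known. Their differences are thus a description, and no p-value is given for the 5. Of the 4 that passed the filter on low values (at least 1 FPKM in at least 3 libraries), P2ry6 alone passed the threshold, an adjusted p of 0.05 in a limma fit across 10638 genes. Among all genes tested 2.07% passed it. P2ry6 was also alone among the 4 in having groups that did not overlap in the higher direction, as did 18.3% of all genes tested and 16.9% of all genes of the table. Groups that did not overlap in the lower direction made up 9.59% of genes tested, and 27.8% did not overlap in either direction. None of these shares is read as support for P2ry6, which was chosen by this contrast. P2ry6 no longer passed the threshold once replicate 2 or replicate 3 of either group was left out, with differences between 1.93 and 2.02. Those fits called few genes of any kind. Without CKD replicate 2 or 3 they called 9 and 8 genes, and without control replicate 2 or 3 they called 7 and 6. It also failed to pass with the replicate number as a block, with the mean of the macrophage genes as a covariate, where it was 1.54, and with groups by the disease model tag, where it was 0.71.

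**Figure D1:**
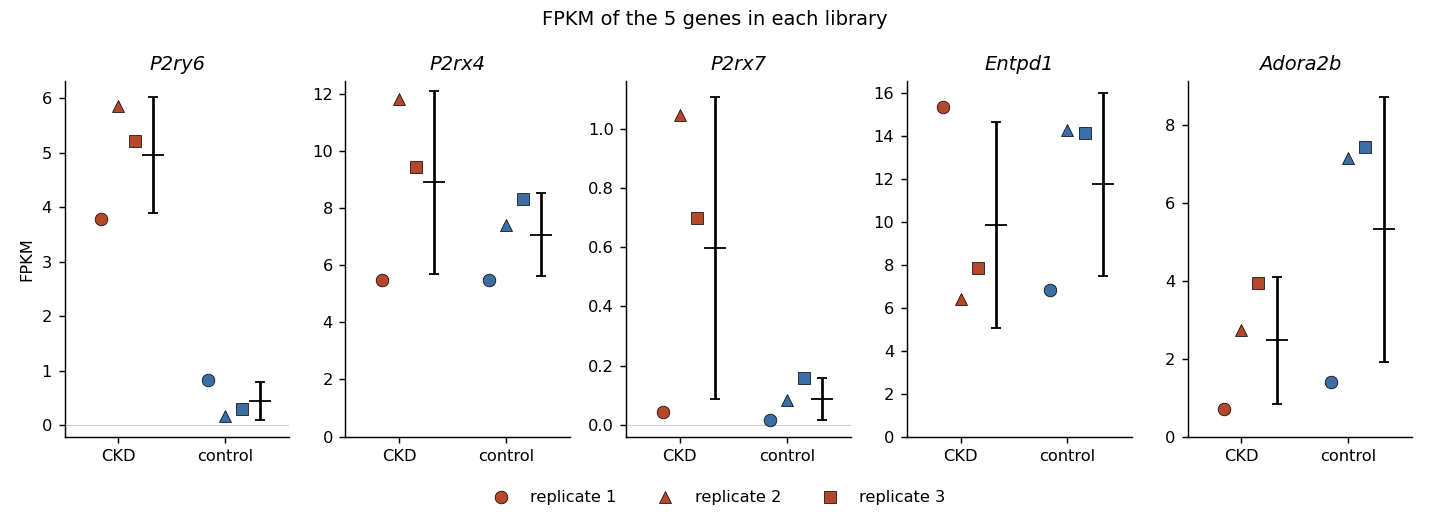
FPKM of the 5 genes (y axis, a scale of its own in each panel) in CKD and control libraries. Circles, triangles and squares are replicates 1, 2 and 3, and the black line with bars is the mean ± SD of 3 libraries. P2ry6 runs from 3.78 to 5.86 FPKM in CKD and from 0.176 to 0.834 FPKM in control, and the other 4 genes overlap between the groups.

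The difference in P2ry6 and that in the summed macrophage markers did not have the same size in the same libraries. In the first replicates P2ry6 was 4.53 times higher in CKD than in control (95% exact interval 3.68 to 5.60, counting error only). The summed macrophage genes stood there at 0.712 times the control level. Lyz2 alone had 232 of the 301 FPKM summed in CKD replicate 1 and 271 of 423 in control replicate 1. Of the 20, 3 were higher in CKD there, Adgre1 (0.638 against 0.0788 FPKM), Cd163 (0.169 against 0.0186) and C1qc (0.924 against 0.880). These 3, under the filter, had every CKD library above every control library, like P2ry6 and 16.9% of all genes of the table. Lyz2, Cd163 and C1qc were picked after their values were seen. In replicates 2 and 3 the mean of P2ry6 was 5.54 FPKM in CKD and 0.241 FPKM in control, a ratio of 23.0, where the summed macrophage genes had a ratio of 154. Per unit of Csf1r, the receptor gene that marks macrophages, P2ry6 stood at 2.66, 0.228 and 0.248 in CKD and at 0.379, 0.606 and 2.01 in control. CKD replicate 1 and control replicate 3 thus had the most P2ry6 for their Csf1r. Csf1r rested on 50 and 24 fragments in control replicates 2 and 3. Per unit of Ptprc, P2ry6 stood at 4.82, 0.378 and 0.458 in CKD and at 0.629 in control replicate 1. It was 12.6 in control replicate 2 and higher still in control replicate 3, on 3 and 4 Ptprc fragments. The order of the libraries thus depended on the marker. The part of macrophage RNA in the level of P2ry6 in CKD replicates 2 and 3 was not tested. In a bulk library, fewer cells of a type and less RNA per cell cannot be told apart.

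The other P2Y receptors set P2ry6 in its family. P2ry2, the receptor for ATP and UTP, had 2.89, 5.32 and 4.69 FPKM in CKD and 2.05, 4.51 and 4.34 FPKM in control, with groups that overlapped (limma log2 difference 0.21 ± 0.30, SE, adjusted p = 0.711). P2ry6 made up 54.3%, 42.5% and 44.2% of the summed FPKM of 7 P2Y receptors in CKD, against 26.9%, 3.60% and 6.40% in control. P2ry2 held 41.6%, 38.6% and 39.7% in CKD and 66.1%, 92.3% and 90.9% in control. By FPKM, P2ry6 was thus the most abundant P2Y receptor transcript in each CKD library and P2ry2 in each control library. In CKD the lead was small, at 1.30, 1.10 and 1.11 times the FPKM of P2ry2. In CKD replicates 2 and 3 P2ry2 had more fragments, 674 and 743 against 603 and 672 for P2ry6. The order there thus rests on the scaling by gene length.

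The remaining P2Y receptors did not reach the filter. P2ry12, the ADP receptor known from platelets and microglia, had 0.00905, 1.58 and 0.924 FPKM in CKD and 0.0670 FPKM in control replicate 1, and was listed at 0 in the other controls. It rests on 1, 156 and 114 fragments in CKD and on 9, 0 and 0 fragments in control, and was high in the libraries with the most macrophage RNA. P2ry1, an ADP receptor, had 11, 89 and 121 fragments in CKD and 3, 0 and 0 fragments in control. In the authors' deposited table P2ry1 had a q-value of 0.000298 and P2ry12 one of 0.0596. P2ry4, P2ry13 and P2ry14 reached at most 0.266, 0.0477 and 0.0526 FPKM in any library. P2ry1, P2ry4, P2ry13 and P2ry14 and, elsewhere, P2rx2, P2rx6, Ada, Slc28a2, Panx1, Panx2, Itpr3, Plcb2, Il1b, Il18, Pf4 and the markers Lepr, Vcam1, Eng, Pdgfra, Col1a2, Tek, Pecam1, Cdh5 and Kdr were picked for the text after their values were seen.

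**Figure D2:**
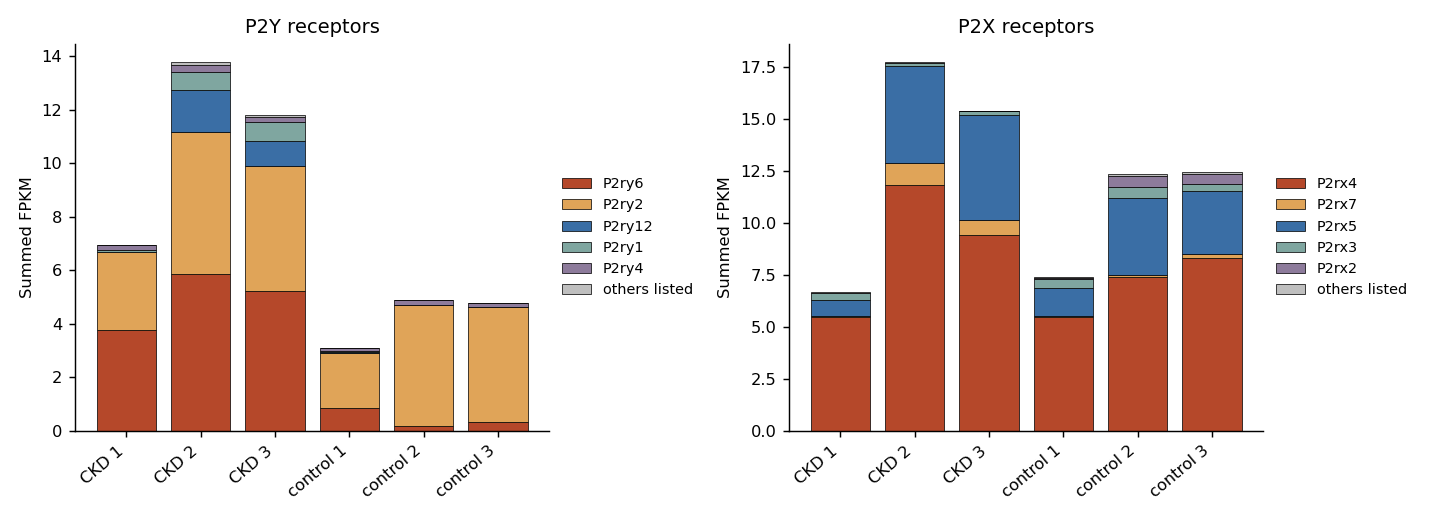
Stacked FPKM (y axis) of P2Y receptors (left) and P2X receptors (right) in each library, CKD libraries first. P2ry6 holds 42.5% to 54.3% of the P2Y sum in CKD libraries and 3.60% to 26.9% in control libraries, while P2rx4 holds 59.9% or more of the P2X sum in every library.

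P2rx4 (NCBI Gene 29659) encodes the P2X4 channel, which ATP opens at the cell surface and which also resides in lysosomes. It had 5.47, 11.8 and 9.44 FPKM in CKD replicates 1, 2 and 3, and 5.48, 7.41 and 8.33 FPKM in control replicates 1, 2 and 3. The groups overlapped, and the first replicates had the lowest value of each group. The means were 8.91 ± 3.21 FPKM in CKD and 7.07 ± 1.46 FPKM in control, with a log2 difference of 0.26 ± 0.28 (SE), smaller than its error. In the first replicates the ratio of CKD to control was 0.998 (95% exact interval 0.903 to 1.10), and for replicates 2 and 3 it was 1.35. With the macrophage mean as a covariate the log2 difference was -0.079 ± 0.42 (SE). In the RefSeq annotation of another assembly (GRCr8), P2rx4 overlaps Camkk2, a kinase gene at 1.16 to 2.07 FPKM, and the library kit is stranded but whether counting used strand is not given in the sources used here, so some fragments could be shared.

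P2rx7 (NCBI Gene 29665) encodes the P2X7 channel, which needs high ATP and is known for setting off the inflammasome in macrophages. It had 0.0434, 1.05 and 0.700 FPKM in CKD replicates 1, 2 and 3, against 0.0162, 0.0838 and 0.159 FPKM in control replicates 1, 2 and 3. CKD replicates 2 and 3 were high, and CKD replicate 1 lay below control replicates 2 and 3. The fragments behind these values were 11, 237 and 198 in CKD and 5, 23 and 40 in control, and the gene did not reach the filter. The ratio of group means was 6.92, from 0.597 ± 0.510 FPKM in CKD and 0.0863 ± 0.0714 FPKM in control. In a fit without the filter the log2(FPKM + 1) difference was 0.50 ± 0.25 (SE), and 0.30 without CKD replicate 2. In the first replicates the ratio was 2.67, with an exact interval from counting error of 0.856 to 9.82, so a difference was not detectable there at this depth.

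P2rx7 was highest in the libraries with the most macrophage RNA, yet the order of the other libraries was not that of the macrophage genes. Control replicate 1, whose summed macrophage level of 423 FPKM was the highest among controls, had the lowest P2rx7 of all 6 libraries. Per unit of Csf1r, P2rx7 stood at 0.0305, 0.0408 and 0.0333 in CKD and at 0.00736, 0.289 and 1.05 in control. With the macrophage mean as a covariate, its log2 difference was 0.036 ± 0.30 (SE). The part of macrophage RNA in P2rx7 was not tested.

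Among the other P2X receptors, P2rx5 had 0.759, 4.68 and 5.04 FPKM in CKD and 1.37, 3.72 and 3.06 FPKM in control (limma log2 difference 0.14 ± 0.55, SE, adjusted p = 0.909). Its first replicates were low in both groups, as for P2rx4. P2rx3, a channel of sensory neurons, had 0.170 to 0.348 FPKM in CKD and 0.325 to 0.541 FPKM in control. P2rx2 had 1, 0 and 0 fragments in CKD and 6, 46 and 39 fragments in control, with a q-value of 0.0022 in the authors' deposited table. P2rx6 reached at most 0.118 FPKM, and P2rx1 was not among the genes of the table.

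Entpd1 (NCBI Gene 64519) encodes CD39, the ectonucleotidase that cuts ATP and ADP to AMP. It had 15.3, 6.40 and 7.84 FPKM in CKD replicates 1, 2 and 3, and 6.82, 14.3 and 14.1 FPKM in control replicates 1, 2 and 3. In each group the first replicate stood apart, on the high side in CKD and on the low side in control. The means were 9.85 ± 4.80 FPKM in CKD and 11.7 ± 4.27 FPKM in control, with a log2 difference of -0.25 ± 0.40 (SE), smaller than its error. The direction differed between libraries of the same group. In the first replicates Entpd1 was 2.25 times higher in CKD (95% exact interval 2.10 to 2.40, counting error only), and in replicates 2 and 3 it stood at 0.501 times the control level. Without both first replicates the log2 difference was -0.91 ± 0.09 (SE), and with the macrophage mean as a covariate it was 0.79 ± 0.13 (SE). In GRCr8 a pseudogene and a long non-coding RNA overlap Entpd1, so sharing of fragments cannot be told apart there either.

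Nt5e, which encodes CD73 and turns the AMP made by CD39 into adenosine, had 8.79, 38.8 and 36.4 FPKM in CKD and 8.53, 15.9 and 16.1 FPKM in control (limma log2 difference 0.80 ± 0.60, SE, adjusted p = 0.467). CKD replicates 2 and 3 were high and the first replicates of both groups were alike. The ratio of Entpd1 to Nt5e was 1.74, 0.165 and 0.215 in CKD, against 0.799, 0.895 and 0.881 in control. The controls lay close together in this ratio and the CKD libraries lay on either side of them. Enpp1, which makes pyrophosphate from ATP, had 78.6, 20.2 and 23.6 FPKM in CKD and 54.4, 24.0 and 24.1 FPKM in control, highest in the first replicates (limma log2 difference 0.085 ± 0.60, SE, adjusted p = 0.949). Of 4 ectonucleotidase genes tested other than Entpd1, limma called 0, with 0 at an unadjusted p under 0.05, and limma-voom called 0. Over all genes tested these shares were 2.07% called and 22.1% at an unadjusted p under 0.05.

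Adora2b (NCBI Gene 29316) encodes the A2B receptor, which has low affinity for adenosine and raises cyclic AMP. It had 0.717, 2.75 and 3.95 FPKM in CKD replicates 1, 2 and 3, against 1.40, 7.14 and 7.43 FPKM in control replicates 1, 2 and 3. The first replicate of each group was low, and the groups overlapped through control replicate 1. The means were 2.47 ± 1.63 FPKM in CKD and 5.32 ± 3.40 FPKM in control, with a log2 difference of -0.79 ± 0.63 (SE). Within replicates of the same number the CKD value was lower each time, at 0.512 times the control level in the first replicates (95% exact interval 0.362 to 0.716, counting error only) and at 0.459 times for the mean of replicates 2 and 3. Whether matching numbers pair these libraries is not stated, and the difference over all 6 was little larger than its error. Without CKD replicate 1 it was -0.35, without control replicate 1 it was -1.39, and without both libraries with conflicting tags it was -0.064. With groups by the tag the direction turned, at 0.71.

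Adora2b was the adenosine receptor that these libraries held. Adora2a, the high-affinity receptor of leukocytes, reached at most 0.0265 FPKM in any library. Adora1 had at most 0.0549 FPKM and was listed at 0 in all 3 controls, and Adora3 was not among the genes of the table. The level of Adora2b ran against the macrophage genes within replicates 2 and 3, where CKD had less Adora2b and more macrophage RNA. Within CKD, replicate 1 was lowest in both Adora2b and the summed macrophage genes. Among controls, replicate 1 was lowest in Adora2b and highest in that sum. The part of macrophage RNA in the level of Adora2b was not tested. With the macrophage mean as a covariate the log2 difference of Adora2b was -0.80 ± 1.04 (SE), smaller than its error.

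The levels of the 5 genes differed in order between libraries. Averaged over all 6, Entpd1 had 10.8, P2rx4 7.99, Adora2b 3.90, P2ry6 2.69 and P2rx7 0.342 FPKM. In control, Entpd1 exceeded P2rx4, Adora2b and P2ry6 in every library, whereas in CKD replicates 2 and 3 P2rx4 exceeded Entpd1. Genes next to each other in this averaged order overlapped in their range over the 6 libraries. P2ry6 was above 55.5%, 60.7% and 58.9% of the genes of the table in CKD replicates 1, 2 and 3, and above 36.1%, 24.2% and 28.7% in control. P2rx7 was above 35.1% of genes at most, in CKD replicate 2.

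**Figure D3:**
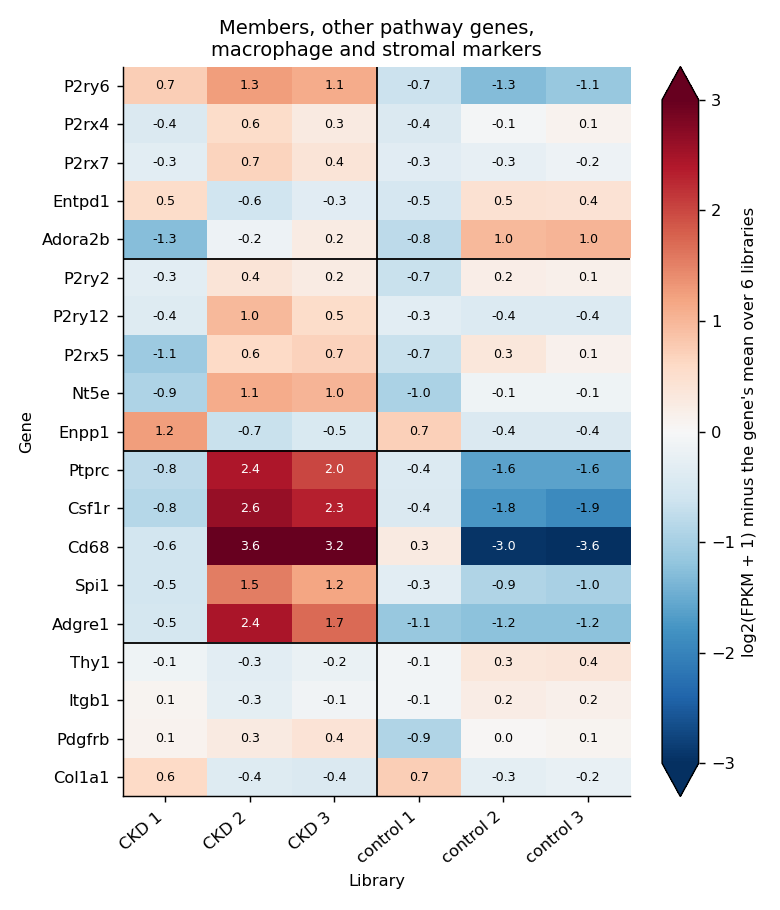
log2(FPKM + 1) of each gene (rows) in each library (columns, CKD first) minus the gene's mean over 6 libraries, with the 5 genes in the top block, then other pathway genes, macrophage markers and stromal markers. P2ry6 is above its mean in all 3 CKD libraries and below it in all 3 controls, while the macrophage markers are above their mean in CKD replicates 2 and 3.

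Adenosine uptake and turnover gave the other call of the pathway. Slc29a2, which encodes the nucleoside transporter ENT2, had 3.38, 2.50 and 2.42 FPKM in CKD replicates 1, 2 and 3, against 1.20, 1.03 and 1.18 FPKM in control replicates 1, 2 and 3. All CKD libraries lay above all controls, as for 18.3% of all genes tested, and the largest value was that of CKD replicate 1. The log2 difference was 0.81 ± 0.12 (SE), with an adjusted p of 0.0439 in limma, higher in 3 of 3 CKD libraries, and the means were 2.76 ± 0.531 FPKM in CKD and 1.14 ± 0.0893 FPKM in control. The call lay close to the threshold. Leaving out CKD replicate 2 or 3 gave limma adjusted p-values of 0.199 and 0.216, and leaving out control replicate 2 or 3 gave 0.176 and 0.210, so the call was lost each time, while the log2 difference stayed between 0.77 and 0.87. Among all genes tested, those fits called 9, 8, 7 and 6, in that order. Over 15 alternatives the adjusted p ran from 0.000398 to 0.958 and 4 kept the call. The log2 difference ran from 0.072, with groups by the tag, to 1.20, with a pseudocount of 0.1. The q-value in the authors' deposited table was 2.98e-05.

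Slc29a1, the more abundant transporter ENT1, had 73.2, 46.3 and 49.9 FPKM in CKD and 39.5, 78.3 and 75.3 FPKM in control (limma log2 difference -0.15 ± 0.32, SE, adjusted p = 0.814). Its libraries fell in the same pattern as those of Entpd1, with the first replicate high in CKD and low in control. Adk, the kinase that returns adenosine to AMP inside the cell, had 19.8, 19.9 and 21.2 FPKM in CKD and 19.2, 19.0 and 19.1 FPKM in control, a limma log2 difference of 0.082 ± 0.064 (SE) with an adjusted p of 0.484. Ada, the deaminase that removes adenosine, had 3.38, 6.92 and 6.04 FPKM in CKD and 2.12, 3.35 and 3.26 FPKM in control (limma log2 difference 0.69 ± 0.26, SE, adjusted p = 0.202). Adk and Ada, like Slc29a2, had every CKD library above every control library. Slc28a2, a concentrative nucleoside transporter under the filter, had 0.443, 6.09 and 5.27 FPKM in CKD and 0.808, 0.0747 and 0.0466 FPKM in control, which is the order of the summed macrophage genes across libraries.

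Genes of nucleotide release were measured by 3 tested genes. Gja1, which encodes connexin 43, had 177, 444 and 346 FPKM in CKD and 199.6, 158 and 162 FPKM in control (limma log2 difference 0.80 ± 0.35, SE, adjusted p = 0.246), with the first replicates close to each other. Lrrc8a, a subunit of the volume-regulated anion channel, had 6.20, 4.75 and 4.92 FPKM in CKD and 4.75, 3.89 and 4.66 FPKM in control (limma log2 difference 0.21 ± 0.12, SE, adjusted p = 0.362). The pannexin gene Panx1 overlapped between groups at 1.12 to 1.36 FPKM in CKD and 0.773 to 1.98 FPKM in control.

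Downstream of P2Y6 stand the Gq proteins, phospholipase C beta and the IP3 receptors. Of 8 such genes tested, limma called 0, with 1 at an unadjusted p under 0.05, and limma-voom called 0, where 2.07% of all genes tested were called and 22.1% had an unadjusted p under 0.05. Gnaq, the Gq alpha subunit, had 26.4, 24.6 and 26.4 FPKM in CKD and 27.3, 29.4 and 27.4 FPKM in control (limma log2 difference -0.12 ± 0.07, SE, adjusted p = 0.377). Itpr1, an IP3 receptor, had 34.4, 13.2 and 17.5 FPKM in CKD and 26.4, 15.9 and 14.9 FPKM in control (limma log2 difference 0.11 ± 0.39, SE, adjusted p = 0.895). Itpr3 was lower in all CKD libraries, at 3.46, 3.57 and 4.08 FPKM against 4.16, 5.23 and 5.81 FPKM in control, and did not pass (limma log2 difference -0.36 ± 0.13, SE, adjusted p = 0.180). Gnaq was also lower in all CKD libraries, as were 9.59% of all genes tested. Plcb2, a phospholipase of blood cells under the filter, had 19, 702 and 639 fragments in CKD and 88, 15 and 20 fragments in control.

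Downstream of P2X7, limma called 0 of 5 inflammasome genes tested, with 0 at an unadjusted p under 0.05, and limma-voom called 0. Among all genes tested 2.07% were called and 22.1% had an unadjusted p under 0.05, so a count of 0 among 5 is near that background for calls. Casp1, the protease that matures interleukin-1 beta, had 6.58, 14.8 and 13.4 FPKM in CKD and 3.58, 10.9 and 10.3 FPKM in control (limma log2 difference 0.49 ± 0.47, SE, adjusted p = 0.569). Gsdmd, the pore-forming gasdermin, had 17.4, 21.2 and 19.7 FPKM in CKD and 19.0, 37.1 and 37.4 FPKM in control (limma log2 difference -0.60 ± 0.27, SE, adjusted p = 0.267). Il1b had 0.375, 4.51 and 3.62 FPKM in CKD and 2.90 and 0.0182 FPKM in control replicates 1 and 2, with a listed 0 in the other control, and Il18 had 0.201, 4.93 and 3.33 FPKM in CKD and 0.533 FPKM or less in control. Both cytokine genes were highest in CKD replicates 2 and 3 and, among controls, in replicate 1, as the macrophage genes were.

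**Figure D4:**
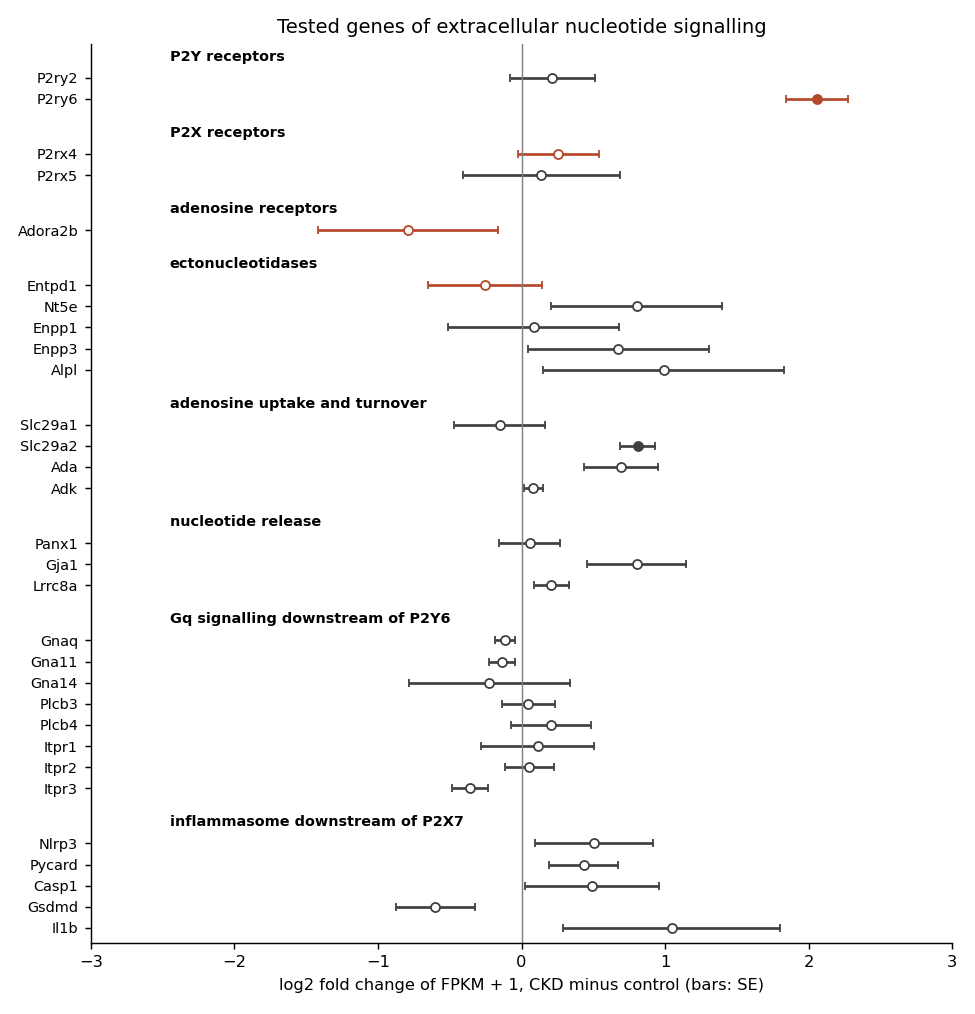
log2 fold change of FPKM + 1, CKD minus control (x axis, bars are SE), for the 30 tested pathway genes by role. The 4 of the 5 followed genes that passed the filter are in red, and filled points passed the threshold, which are P2ry6 at 2.06 and Slc29a2 at 0.81.

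Counted over the whole pathway, 48 genes other than the 5 were listed, 44 of them were in the table and 26 were tested. Of the 26, 1 was called higher and 0 lower (limma), against 1.33% and 0.733% of all genes tested, and limma-voom called 0. At an unadjusted p under 0.05, 2 of the 26 were higher and 1 was lower, against 14.6% and 7.51% of all genes tested. Log2 fold changes were positive for 20 of the 26, with a median of 0.17, and for 59.4% of all genes tested, with a median of 0.053. Without CKD replicate 1, 6 of the 26 were called, where 15.1% of all genes tested were. Without both first replicates 16 were called, 11 higher and 5 lower, in a fit that called 5851 genes in all, or 55% of those tested. The authors' deposited table gave 7 of the 44 a q-value under 0.05, or 15.9%, against 11.3% of all genes. They were P2ry1, Slc29a2, Slc28a2, Panx2 and Plcb2 on the higher side and P2rx2 and Itpr3 on the lower side.

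Genes whose pattern over the 6 libraries was most like that of P2ry6 were sought by Pearson correlation of log2(FPKM + 1) among tested genes. The closest were Mboat7 (r = 0.999), an acyltransferase of phosphatidylinositol, Orc6 (0.997), a subunit of the origin recognition complex, Rbbp8 (0.997), which acts in the resection of DNA ends, Suz12 (0.997), a subunit of Polycomb complex PRC2, and Ndufa5 (0.996), a subunit of respiratory complex I. They moved far less than P2ry6, with log2 fold changes from 0.25 for Ndufa5 to 0.61 for Orc6. No macrophage marker was among these 5, which says little. Only 16 of the 10638 genes tested were such markers, and Adgre1, Cd163, C1qc and Spi1 were under the filter. For P2rx4 the closest were Epn1 (r = 0.995) and Mink1 (0.995). For Entpd1 they were Cep83 (0.995), Dlgap4 (0.993) and Fabp3 (0.992), a fatty acid binding protein at 71.1, 24.1 and 30.7 FPKM in CKD and 28.8, 67.9 and 75.2 FPKM in control. For Adora2b they were Extl3 (0.997), Tmem62 (0.996) and Thap12 (0.994). With 6 libraries and 10638 genes such values arise easily, and they describe likeness only.

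**Figure D5:**
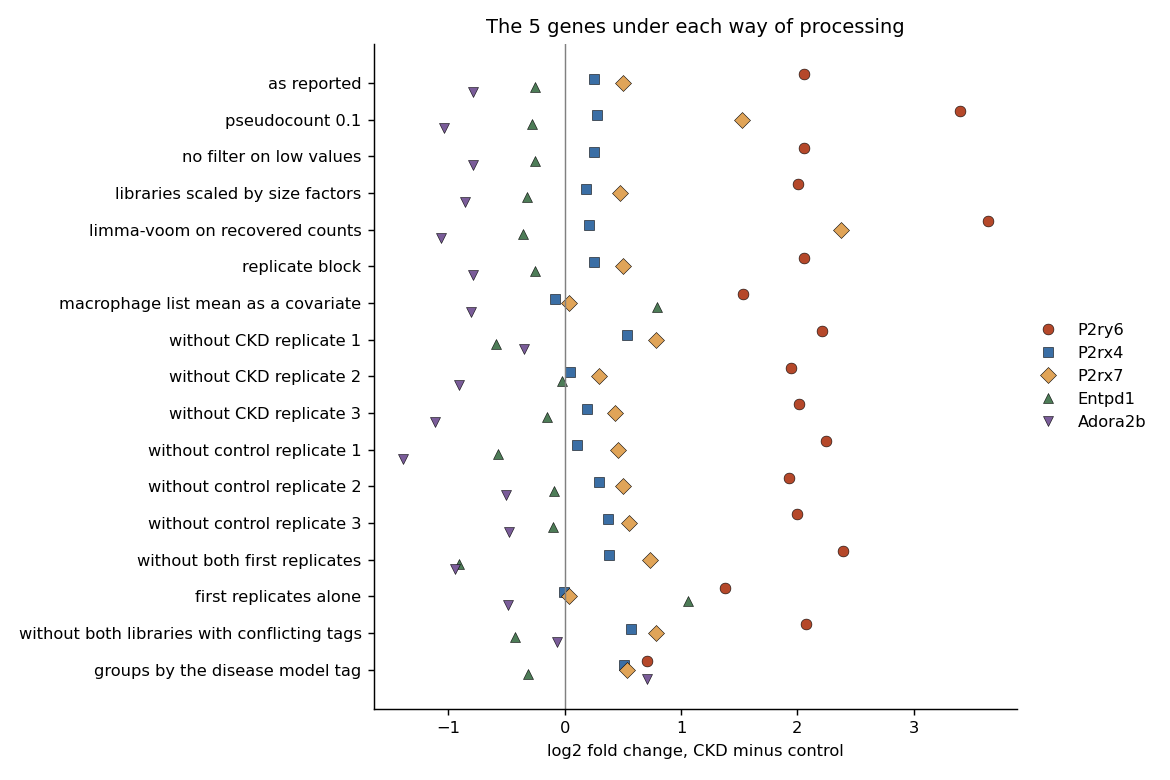
log2 fold change, CKD minus control (x axis), of the 5 genes as reported and under each other way of processing (rows). P2rx7 comes from fits without the filter. P2ry6 is positive in every row, between 0.71 and 3.64, and Entpd1, P2rx4 and Adora2b each lie on both sides of 0.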

How the data were processed

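RNA-seq of 3 CKD and 3 control libraries was analysed from 1 deposited table of 16690 genes. Per the file headers it holds FPKM per library, group means of normalized counts, and the authors' fold change (a ratio), log2 fold change, p-value and q-value, and its numbers have decimal commas. Per the submitters' processing notes reads were handled with, in no stated order, HTSeq 0.11.2, DESeq2 1.22.2, DESeq 1.34.1, HISAT2 2.1.0, FastQC 0.11.9 and SAMtools 1.9, on build mRatBN7.2. The table holds no gene with a mean normalized count under 1.03. Libraries were grouped by the column code and title, and a disease model tag that conflicts for 2 libraries was an alternative.

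From the deposited FPKM values, whole fragment counts were recovered with the help of the group means. All 100140 values came out whole within 0.01. The main fit was limma 3.58.1 (R 4.3.3, trend, two-sided, Benjamini-Hochberg, threshold 0.05) on log2(FPKM + 1), for the 10638 genes that reached 1 FPKM in 3 or more libraries, which left out 6052. Fold changes on this scale understate those of low genes. Exact 95% intervals cover counting error only. No count-model test was the main result, since the deposited unit is FPKM, and limma-voom on recovered counts was an alternative. Other alternatives were scaling by size factors, a pseudocount of 0.1, no filter, a replicate block, a covariate and leaving out libraries.

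The 5 genes and the gene lists were chosen with earlier results of these data known. Other pathway genes were named where called, plus up to 2 per role with the highest mean FPKM, and genes outside this rule are marked in the text. Gene names and neighbours came from RefSeq (GRCr8), where 16118 IDs matched, whose positions gave only the order and overlap of genes in that assembly. A planned search of promoter sequence was not run. Genes most like each of the 5 were ranked by Pearson r, with the top 5 named for P2ry6 and the top 3 for the others, of which 1 for P2rx4 is not reported here.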

Additional observations from a re-analysis of the deposited data

How the results depend on the processing

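Genes called over the whole table numbered 220 and depended strongly on the libraries and the scale. Grouping by the disease tag gave 0 (641 at an unadjusted p under 0.05 in limma), limma-voom 123, the macrophage mean as a covariate 18, no filter 133, the replicate block 88, and leaving out both first replicates 5851. Leaving out 1 library gave 6 to 1602, with 1602 without CKD replicate 1 and 1279 without control replicate 1. Without replicate 2 or 3 of either group it gave only 6 to 9. Scaling by size factors gave 230, of which 126 were higher and 104 lower, against 142 higher and 78 lower. Of the other pathway genes 1 was called. It was 0 by the tag (8 of 26 at an unadjusted p under 0.05 in limma, against 641 of 10638 over all genes tested). It was also 0 with size factors (4, against 2331), limma-voom (4, against 2271) and the covariate (4, against 1219). No filter gave 0 as well (9 of 44, against 3209 of 16690), as did the replicate block (7 of 26, against 2445 of 10638). Leaving out both libraries with conflicting tags gave 0 too (7, against 2474), and leaving out both first replicates gave 16. Leaving out 1 library gave 0 to 6. For P2ry6 the log2 difference of 2.06 became 1.38 in the first replicates, 0.71 by the tag, 3.64 with limma-voom, 1.54 with the covariate, 3.40 with a pseudocount of 0.1 and 2.40 without both first replicates, and ran from 1.93 to 2.25 when 1 library was left out. For P2rx4, 0.26 turned to -0.0020 in the first replicates and -0.079 with the covariate, and ran from 0.043 to 0.54. For P2rx7, 0.50 became 0.038 in the first replicates, 2.38 with limma-voom, 0.036 with the covariate and 1.52 with a pseudocount of 0.1, and ran from 0.30 to 0.78. For Entpd1, -0.25 turned to 1.06 in the first replicates and 0.79 with the covariate, was -0.91 without both first replicates, and ran from -0.59 to -0.020. For Adora2b, -0.79 turned to 0.71 by the tag and ran from -1.39 to -0.35. The causes were not tested. Deviations of same-numbered libraries from their group means correlated at r = 0.036, -0.031 and 0.109. For unlike numbers r ran from -0.106 to 0.093. With 3 libraries in a group such values cannot settle whether the numbers pair libraries. With the replicate block P2ry6 kept its difference of 2.06 and lost its call. First-replicate values and their use were chosen after seeing the data. The fewest fragments stand behind P2rx7, with 5 in control replicate 1 and 11 in CKD replicate 1.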

Other observations

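Genes next to the 5 in the RefSeq order of GRCr8 were looked up after the data were seen. P2ry6 lies between Arhgef17, at 10.9, 9.44 and 10.2 FPKM in CKD and 9.76, 10.4 and 10.6 FPKM in control, and P2ry2. Arhgef17 had a log2 fold change of -0.0099 ± 0.080 SE (limma adjusted p = 0.955), and Fchsd2, on the far side of P2ry2, 0.016 ± 0.14 SE (limma adjusted p = 0.958). Relt, a member of the tumour necrosis factor receptor family on the far side of Arhgef17, had 0.569, 0.976 and 0.985 FPKM in CKD and 0.155, 0.303 and 0.253 FPKM in control, under the filter, with all CKD libraries above all controls, as for 16.9% of all genes of the table. P2rx4 and P2rx7 are next to each other, and Ift81, beyond P2rx7, had a log2 fold change of -0.043 ± 0.088 SE (limma adjusted p = 0.807).

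Panx2, a pannexin gene under the filter that was picked after its values were seen, had 15, 16 and 16 fragments in CKD and 1, 3 and 1 fragments in control. CKD replicate 1 was as high as the other CKD libraries here, unlike the macrophage genes. With so few fragments this is a description, and the part of macrophage RNA in Panx2 was not tested. In the authors' deposited table Panx2 had a q-value of 0.00748, where 11.3% of all genes had one under 0.05.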
